A study of Mus musculus with 2 samples.

Results

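Hormone-sensing luminal-like nuclei were those nuclei of cultured mouse mammary organoids whose chromatin was most open at 6 genes of the hormone-sensing lineage, Esr1, Pgr, Prlr, Cited1, Foxa1 and Tnfsf11, relative to luminal progenitor, basal and immune genes. The rule found 1068 such nuclei among the 6175 nuclei of the series, of which 5509 had at least 20000 counts and were scored. Of these 1068 members, 251 came from the DOX library and 817 from the EtOH library. The score of a list was the share of a nucleus's counts in peaks on the bodies and the 2 kb upstream of its genes, divided by the mean share over all scored nuclei. A member had an immune score under 1.25 and a hormone-sensing score that was the highest of the 3 epithelial scores and at least 1.2 times the next.

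The study asked how depletion of the transcriptional repressor TRPS1, an atypical GATA-family protein, alters open chromatin in mammary epithelium. Both groups were C57BL/6J cells of the genotype shTRPS1.34 ki/+; CAG-rtTA3 tg/+, in which an inducible shRNA with a tGFP reporter is driven through rtTA3 under the ubiquitous CAG promoter. Organoids of primary mammary cells were grown in matrigel with Neuregulin, Noggin and R-spondin, kept for 7 days with either doxycycline at 0.1 µg/ml (DOX) or ethanol (EtOH), and cells from several mice were mixed at harvest. The mice were 12 to 20 weeks old. Nuclei were profiled by scATAC-seq, in which a transposase cuts and tags open DNA, with 7600 nuclei loaded per library. Each group was 1 library, so nothing here has a replicate error, no test between groups was possible, and all differences between DOX and EtOH compare these libraries. No DOX-treated control without the Trps1 shRNA belongs to the groups, so doxycycline itself and the depletion cannot be told apart. Which nuclei had switched on the shRNA was not measured in these files.

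The mammary gland has an outer basal layer of contractile myoepithelial cells and an inner luminal layer. Hormone-sensing luminal cells are the luminal cells that carry the estrogen, progesterone and prolactin receptors. On binding its hormone, the estrogen receptor attaches to DNA at estrogen response elements, often where the pioneer factor FOXA1 has opened chromatin, and the cells then signal to their neighbors through secreted factors such as amphiregulin, RANKL and WNT4. Luminal progenitor cells lack most of these receptors and are marked by genes such as Kit, Elf5 and Csn3.

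Open DNA that holds an estrogen response element was a feature of these nuclei that the rule had not used, and 4 such regions are shown first as examples of the element. The element was searched as GGTCA and TGACC with any 3 bases between them, on both strands, in the central 300 bases of the 174940 regions with a peak in both libraries. It was found in 107 regions, 0.0612% of them, of which 0 lay at a gene of the rule lists, 99 lay over 1 kb from any transcription start and 41 lay within a gene. The 4 printed here had the highest accessibility in members, ranked by the lower of both libraries, a choice made after their values were seen. Each stretch is 200 bases of mm10 (GRCm38, plus strand) around the element, which stands in capitals. The first lies between genes and the other 3 lie in introns.
chr9:120601646-120601845, 12448 bases from the nearest start, that of Rpl14: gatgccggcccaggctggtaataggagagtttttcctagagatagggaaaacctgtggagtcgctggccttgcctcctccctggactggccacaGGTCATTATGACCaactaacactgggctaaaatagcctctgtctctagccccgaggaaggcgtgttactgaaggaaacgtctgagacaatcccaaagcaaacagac
chr2:158523202-158523401, in Arhgap40: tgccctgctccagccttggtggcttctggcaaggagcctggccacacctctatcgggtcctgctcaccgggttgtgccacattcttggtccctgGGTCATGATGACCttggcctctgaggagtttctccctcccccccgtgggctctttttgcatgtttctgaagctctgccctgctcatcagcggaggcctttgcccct
chr1:153085348-153085547, in Nmnat2: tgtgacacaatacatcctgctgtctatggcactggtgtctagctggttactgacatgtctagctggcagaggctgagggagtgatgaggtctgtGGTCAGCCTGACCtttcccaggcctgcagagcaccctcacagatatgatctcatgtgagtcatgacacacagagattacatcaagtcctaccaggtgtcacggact
chr12:72490194-72490393, in Lrrc9: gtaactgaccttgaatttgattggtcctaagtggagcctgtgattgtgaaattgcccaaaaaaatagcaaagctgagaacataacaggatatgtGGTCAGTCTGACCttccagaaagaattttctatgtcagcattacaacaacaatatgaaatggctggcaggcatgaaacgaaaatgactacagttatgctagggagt

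In these regions the members stood apart to different degrees. The Nmnat2 region, where other epithelial nuclei were least open of the 4, held 25.6 counts per 1000000 shared-region counts (CPM) in DOX members and 35.3 CPM in EtOH members, against 7.66 and 5.31 CPM in other epithelial nuclei. The region near Rpl14 held 31.3 and 48.0 CPM in members against 15.4 and 15.9 CPM. The Arhgap40 region was closer, with log2 ratios of members over other epithelial nuclei of 0.20 in DOX and 0.60 in EtOH. The Lrrc9 region gave 0.41 and 0.38, and it was as open in nuclei over the immune cut, at 23.4 and 24.1 CPM, as in members. The order of the 4 regions by CPM in members was therefore not the order of their difference from other nuclei. Here and below, other epithelial nuclei are the 1279 DOX and 1704 EtOH nuclei under the immune cut that were not members, namely 359 and 868 progenitor-like and 431 and 332 basal-like nuclei by the same rule and a rest of mixed nuclei with no list 1.2 times the next.

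The members were not a uniform group, and the EtOH and DOX members differed in make-up. For EtOH members, the median ratio of the hormone-sensing score to the next score was 1.94, with 632 of 817 at or above 1.5. For DOX members it was 1.51, with 133 of 251 at or above 1.5 and 48 between 1.2 and 1.3. The lowest ratio inside the rule was 1.205 in DOX and 1.2001 in EtOH, and the highest outside was 1.199 and 1.196, with 58 DOX and 60 EtOH nuclei between 1.1 and 1.2. The next list was basal in 190 DOX and 622 EtOH members. The rule rested on few counts per nucleus, a median of 31 in DOX and 37 in EtOH members on the 6 genes, and 66.9% of DOX and 76.7% of EtOH members were again members after every nucleus was thinned to 20000 counts. Median depth was close, 83728 counts in DOX and 80361 in EtOH members. These values chose the members and are given as a description.

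**Figure D1:**
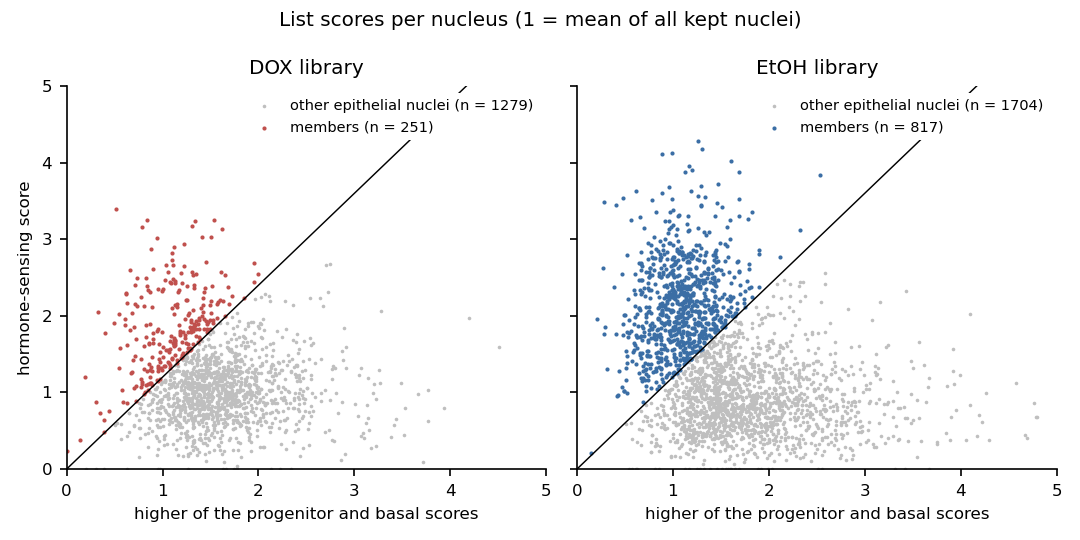
Hormone-sensing score (vertical) against the higher of the progenitor and basal scores (horizontal) for each nucleus under the immune cut, where 1 is the mean of all scored nuclei, colored for members and gray for other epithelial nuclei, with the line at 1.2 times. Most EtOH members lie well above the line and many DOX members lie close to it, and 3 EtOH nuclei that are not members lie beyond the axis limit of 5.

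Members made up 9.19% of scored DOX nuclei (95% exact Clopper-Pearson interval 8.13 to 10.3) and 29.4% of scored EtOH nuclei (27.7 to 31.2). Of nuclei under the immune cut they made up 16.4% of 1530 and 32.4% of 2521. These intervals cover counting error only, and 1202 DOX against 256 EtOH nuclei stood at or over the immune cut. The shares also moved with the mean that scaled the scores, which gave 11.5% in DOX and 24.1% in EtOH when each library was scaled by its own nuclei. The accessibility of Esr1, Prlr and the other list genes sets the shares, so they are not read as numbers of cells.

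Clustering of all scored nuclei on their accessible regions, without the 197 regions of the rule genes, placed the members of the libraries apart. Of the EtOH members, 386 (47.2%) fell in cluster 6 and 343 (42.0%) in cluster 9, and members were 85.6% and 73.6% of the EtOH nuclei of these clusters. Of the DOX members, 72 (28.7%) fell in cluster 6, where they were 79.1% of the DOX nuclei, but 160 (63.7%) fell in cluster 1 and only 4 in cluster 9. Cluster 1 held 1310 DOX and 15 EtOH nuclei, was thus nearly a cluster of 1 library, and members were 12.2% of its DOX nuclei. Cluster 9 held 466 EtOH and 5 DOX nuclei and was likewise nearly a cluster of 1 library. The libraries shared 23 cell barcodes. Results are therefore given for all members and for the members in cluster 6, which both libraries fill, and for the DOX members also for those in cluster 1.

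**Figure D2:**
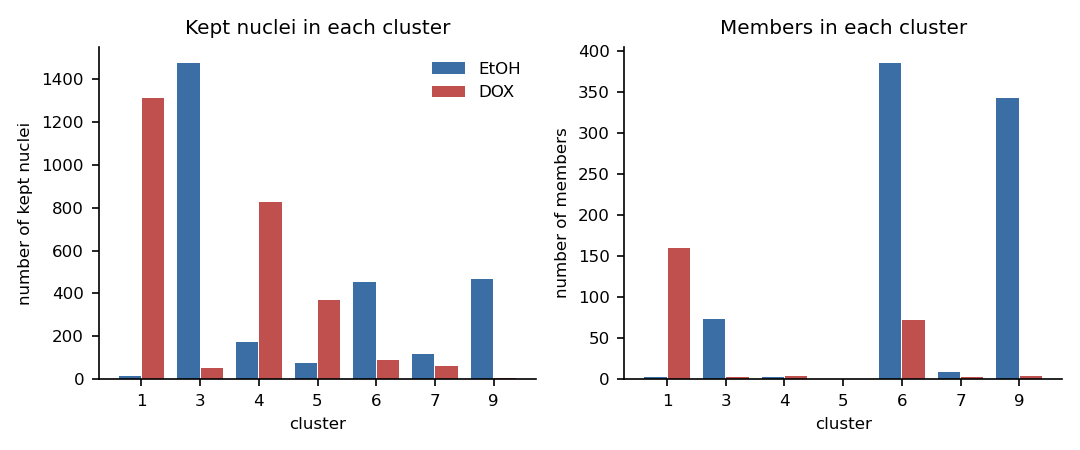
Number of scored nuclei (left) and of members (right) in each cluster, EtOH in blue and DOX in red, leaving out 2 clusters with 17 and 6 nuclei. Cluster 6 holds 386 EtOH and 72 DOX members, while 343 EtOH members sit in cluster 9 and 160 DOX members in cluster 1.

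To check the label on the genes of the list itself, each gene was left out of its own choice of members, with CPM of all peak counts. The nuclei so chosen overlapped the members only in part. Without Esr1 they were 339 in DOX, 216 of them members, and 760 in EtOH, 686 of them members. Without Prlr they were 267 in DOX, 209 of them members, and 816 in EtOH, 738 of them members. Esr1, the estrogen receptor alpha gene (chromosome 10, 4611593 to 5005614, plus strand), was then at 195 CPM in EtOH members and 90.3 CPM in other epithelial nuclei, a log2 ratio of 1.11 (95% interval 1.06 to 1.16). In DOX it was at 115 and 80.1 CPM, a log2 ratio of 0.53 (0.44 to 0.61). Prlr, the prolactin receptor gene (chromosome 15, 10177238 to 10349180, plus strand), gave 0.97 (0.91 to 1.02) in EtOH and 0.48 (0.38 to 0.57) in DOX. Foxa1, the pioneer factor gene, gave 1.19 (1.07 to 1.31) in EtOH, from 38.7 against 16.9 CPM. In DOX it gave 0.50 (0.35 to 0.66), from 42.4 against 29.9 CPM. All 3 were thus more open in members chosen without them than in other epithelial nuclei. The ratios were smaller in DOX than in EtOH. Their intervals did not overlap but cover counting error only, so the difference between the libraries was not tested. The other epithelial nuclei also differed in make-up, with 359 progenitor-like nuclei of 1279 in DOX and 868 of 1704 in EtOH by the full rule. For Foxa1 the level in members was not lower in DOX, and it was the other epithelial nuclei that stood higher there.

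The other 3 list genes gave smaller ratios. Pgr, the progesterone receptor gene (chromosome 9, 8899833 to 8968611, plus strand), gave 0.41 (0.26 to 0.55) in EtOH and 0.20 (-0.03 to 0.42) in DOX. Cited1, a transcriptional co-activator gene, gave 0.34 (0.17 to 0.52) and 0.37 (0.10 to 0.64). Tnfsf11, which encodes RANKL (chromosome 14, 78277445 to 78308043, minus strand), gave 0.47 (0.32 to 0.62) in EtOH and 0.09 (-0.12 to 0.31) in DOX. For Pgr and Tnfsf11 the DOX interval reached below 0. These intervals are exact binomial intervals on counts divided by 2, since the ends of 1 fragment are counted separately, and cover counting error only.

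Of 10 further hormone-sensing markers, 3 in EtOH and 2 in DOX were at least 1.5-fold higher in members over their bodies and 2 kb upstream. Among all genes with at least 100 counts, 8.19% of 17599 in EtOH and 4.09% of 17484 in DOX were that much higher. Ly6a, which encodes the surface protein SCA1, was at 17.04 CPM in EtOH members and 4.11 CPM in other nuclei, and at 9.35 and 3.59 CPM in DOX, log2 ratios of 2.05 (1.83 to 2.28) and 1.38 (1.01 to 1.74). Greb1, an estrogen receptor cofactor and target gene, was at 65.8 against 39.0 CPM in EtOH and 63.4 against 39.5 CPM in DOX, ratios of 0.75 (0.67 to 0.84) and 0.68 (0.55 to 0.81). Wnt4, a secreted Wnt ligand gene, gave 0.64 (0.57 to 0.71) and 0.31 (0.21 to 0.41). Areg, Stc2, Xbp1, Tbx3, Spdef and Prom1 ran from -0.47 for Prom1 in EtOH to 0.44 for Stc2 in DOX. The 10-gene median was 0.15 in EtOH and 0.06 in DOX, beside medians over all genes of -0.07 and -0.01.

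Ly6a, Greb1 and Stc2 also separated the DOX members by cluster. In the 72 DOX members of cluster 6 the log2 ratios over other epithelial nuclei were 2.34 for Ly6a, 1.27 for Greb1 and 0.93 for Stc2, and 3 of 10 markers were at least 1.5-fold higher, against 9.01% of all genes. In the 386 EtOH members of that cluster they were 2.10, 1.17 and 0.32, with 3 of 10 higher against 10.2% of all genes. In the 160 DOX members of cluster 1 they were 0.39, 0.34 and 0.15, and 0 of 10 were that much higher, against 2.05% of all genes. The median of the 10 markers there was -0.004, beside -0.002 over all genes. In both libraries 3 of the 10 markers lay below 0 in all members, namely Prom1, Spdef and Tbx3, and 7 lay above. Over all genes, 47.3% in DOX and 39.1% in EtOH lay above 0. The label thus rested on few genes outside the rule, chiefly Ly6a and Greb1, and in the DOX members of cluster 1 none of the 10 passed 1.5-fold.

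**Figure D3:**
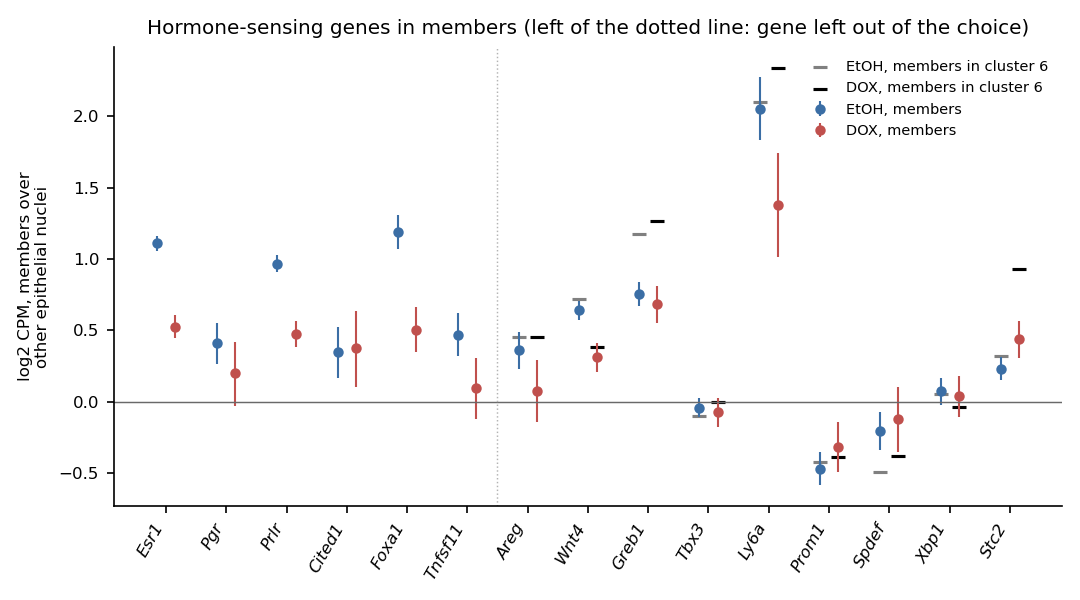
Log2 ratio of CPM in members over other epithelial nuclei for the 6 list genes, each left out of its own choice of members (left of the dotted line), and for 9 further markers (right), EtOH in blue and DOX in red, with 95% counting intervals as bars and the members of cluster 6 as dashes. Ly6a and Greb1 stand highest among the further markers, and Ly6a in DOX is at 1.38 for all members and 2.34 for those in cluster 6.

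Of 9 luminal keratin and junction genes, 6 lay above 0 in each library, including all 4 keratins, while 39.1% of all genes in EtOH and 47.3% in DOX did. At least 1.5-fold higher were 3 in EtOH and 1 in DOX, beside the 8.19% and 4.09% of all genes. Krt7 gave log2 ratios of 1.00 (0.92 to 1.09) in EtOH and 0.68 (0.54 to 0.82) in DOX, Krt19 gave 0.92 and 0.42, Krt18 gave 0.48 and 0.32, and Krt8 gave 0.36 and 0.17. Cldn4, a tight junction gene, was at 47.3 against 20.5 CPM in EtOH, a ratio of 1.21, and at 47.0 against 41.3 CPM in DOX, a ratio of 0.19. The level of Cldn4 was thus alike in members of both libraries, and it was the other epithelial nuclei that stood higher in DOX. Cdh1, the E-cadherin gene, gave 0.44 and 0.09. Epcam, an epithelial adhesion gene, gave -0.38 in EtOH and -0.15 in DOX, and the claudin genes Cldn3 and Cldn7 gave -0.15 and -0.08 in EtOH and -0.09 and -0.07 in DOX.

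Luminal progenitor genes that the rule did not use were mostly lower in members. Of 7 such markers with counts, 1 lay above 0 in each library, while 39.1% of all genes in EtOH and 47.3% in DOX did. At least 1.5-fold lower were 2 in EtOH and 1 in DOX, beside 9.32% and 3.21% of all genes. Lcn2, the lipocalin gene, gave -1.92 (-2.07 to -1.78) in EtOH and -0.63 (-0.81 to -0.46) in DOX, and reached -3.44 and -2.59 in cluster 6. Ltf, the lactoferrin gene, went the other way in EtOH, at 1.14, and gave -0.03 in DOX. Of 195 luminal progenitor genes that the study had listed from other mammary cells, leaving out those of the rule, 32 in EtOH and 8 in DOX were at least 1.5-fold lower. Of the luminal mature genes it had listed, likewise without those of the rule, 35 of 290 in EtOH and 13 of 288 in DOX were that much higher, shares not far above those of all genes. In cluster 6 the counts were 56 of 290 and 37 of 288, beside 10.2% and 9.01% of all genes. The list medians were 0.10 in EtOH and 0.06 in DOX for mature genes and -0.19 and -0.11 for progenitor genes.

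Immune and stromal markers were read beside these results. Of 6 further immune markers, 0 were at least 1.5-fold higher in members in either library and Ctss was lower in both, at -0.75 in DOX and -0.83 in EtOH. Their summed accessibility was 378 CPM in DOX members and 381 CPM in EtOH members, against 847 and 841 CPM in nuclei over the immune cut, with 0 of 6 at 0, and most of it was Cx3cr1, at 288 and 298 CPM in members and 280 and 276 CPM in other epithelial nuclei. Of the immune genes of the rule, Ptprc gave 0.45 and 0.86 and Csf1r 0.59 and 0.64 over other epithelial nuclei, while Tyrobp stood at 0.434 and 0.400 CPM in members. In EtOH 3 of these genes had at least 100 counts, of which 2 were at least 1.5-fold higher in members and 1 lower, at -1.81. In DOX 4 had such counts, all above 0, and 1 of them was at least 1.5-fold higher. Of all genes, 8.19% in EtOH and 4.09% in DOX were that much higher. The summed level of the 6 immune rule genes was 34.2 and 33.6 CPM in members, 25.3 and 22.3 CPM in other epithelial nuclei and 443 and 458 CPM in nuclei over the cut. Fibroblast markers summed to 68.7 and 57.1 CPM in members and 84.0 and 84.3 CPM in other epithelial nuclei, with Lum at 0, and endothelial markers to 215 and 265 CPM against 220 and 252 CPM. Of 7 further basal markers, 4 in DOX and 3 in EtOH lay above 0, while 47.3% of all genes in DOX and 39.1% in EtOH did. Their sum was 171 and 153 CPM in members against 163 and 139 CPM in other epithelial nuclei. None in DOX passed 1.5-fold, while in EtOH Krt5 was higher, at 0.62 (0.33 to 0.91), and Cnn1 lower, at -1.04 (-1.43 to -0.67).

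The genes most open in members relative to other epithelial nuclei, by the lower ratio of both libraries among 12492 genes, included R3hdml, March1, Agbl1, Abcc8, Negr1, Adarb2, Trpc6, Ryr2 and Rab3b. R3hdml was at 26.5 against 7.75 CPM in DOX and 42.0 against 13.2 CPM in EtOH, ratios of 1.78 and 1.67. Abcc8, which encodes the sulfonylurea receptor of potassium channels, gave 1.55 and 2.41, and March1, a ubiquitin ligase gene, 1.63 and 2.35. Ryr2, a calcium release channel gene, gave 1.28 and 2.11. In DOX, the members of cluster 6 gave 2.50 for Abcc8 and 2.70 for March1, and the members of cluster 1 gave 0.68 and 0.26. These genes were picked for their size from the nuclei compared and carry no test.

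Among distal regions the 4 most open in members, ranked in the same way among 28324, lay near 4930474N05Rik, in Agbl1, near Ccdc54 and near Olfr1131. One of them is shown because its central 200 bases hold motifs of kinds that were more open in members. It is an intronic region of Agbl1 with AP-1 matches and a forkhead (FOX) match in capitals. The others held no AP-1 or FOX match there, so the region shown does not stand for all of them. The shown region of Agbl1 was also not the highest by rank. It held 107 counts in DOX and 594 in EtOH members, or 5.16 and 9.49 CPM, against 0.320 and 0.648 CPM in other epithelial nuclei. Of these counts, 99 in DOX and 404 in EtOH came from cluster 6.
chr7:76962624-76962823, in Agbl1: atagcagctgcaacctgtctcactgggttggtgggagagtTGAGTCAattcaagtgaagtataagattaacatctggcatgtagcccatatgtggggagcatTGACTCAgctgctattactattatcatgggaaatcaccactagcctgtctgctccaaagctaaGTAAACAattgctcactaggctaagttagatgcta

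At the receptor genes themselves, the region that stood out most in members was intronic in both Esr1 and Prlr. These are shown as the regions with the highest ratio at each receptor, with ETS, AP-1 and TEAD matches in capitals, and each holds only a part of the counts of its gene. The Esr1 region held 32 counts in DOX and 224 in EtOH members, 1.54 and 3.58 CPM, against 0.217 and 0.365 CPM in other epithelial nuclei. Nuclei over the immune cut were at 1.31 and 1.00 CPM there, so in DOX they were nearly as open as members. The Prlr region held 239 and 1398 counts, 11.5 and 22.3 CPM, against 1.13 and 3.21 CPM in other epithelial nuclei, and only 11 and 7 counts came from nuclei over the immune cut. At Prlr, 162 of the 239 DOX counts came from the 72 members of cluster 6, and within that cluster the DOX over EtOH log2 ratio was 0.11. An intronic region of Tnfsf11, chr14:78296997-78297929, held 157 and 505 counts, 7.57 and 8.07 CPM, against 2.51 and 1.17 CPM. The rule used these genes, so their ratios are a description.
chr10:4909355-4909554, in Esr1: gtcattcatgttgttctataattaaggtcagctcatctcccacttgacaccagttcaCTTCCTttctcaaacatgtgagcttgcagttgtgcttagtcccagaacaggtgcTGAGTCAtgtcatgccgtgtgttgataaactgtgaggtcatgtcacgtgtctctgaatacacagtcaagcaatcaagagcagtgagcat
chr15:10201122-10201321, in Prlr: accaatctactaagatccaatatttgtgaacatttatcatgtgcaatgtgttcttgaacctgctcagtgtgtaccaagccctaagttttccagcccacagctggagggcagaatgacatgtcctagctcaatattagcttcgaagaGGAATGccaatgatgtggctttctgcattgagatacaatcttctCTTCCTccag

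Of the 12 motifs searched, the estrogen response element had the largest shift in members over other epithelial nuclei, 1.43 in DOX and 1.85 in EtOH, a shift being how far the median log2 ratio over regions with a motif stood from the median over all regions tested. Of the element regions with at least 100 counts, 78 of 89 in DOX and 87 of 101 in EtOH were more open in members than in other epithelial nuclei. Of all regions, 47.0% in DOX and 44.9% in EtOH were. At least 2-fold higher were 52 in DOX and 69 in EtOH, while 10.8% of 144516 regions in DOX and 20.5% of 159055 regions in EtOH were that much higher. Their median log2 ratio was 1.39 in DOX and 1.76 in EtOH, beside -0.03 and -0.09 over all regions. Summed over the regions, the ratio was 0.95 (0.91 to 0.99) and 1.21 (1.19 to 1.24). In DOX members of cluster 6 the median was 1.90 and in those of cluster 1 it was 0.48. There 70 of 82 and 55 of 69 element regions lay above 0, beside 43.4% and 47.4% of all regions. In EtOH members it was 2.35 in cluster 6 and 1.14 in cluster 9. A match to the letters is a description of the sequence and does not show that the receptor was bound.

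Per nucleus, the element regions took a median of 0.0517% of counts in DOX members (quartiles 0.0349 to 0.0859) and 0.0710% in EtOH members (0.0508 to 0.0922). Progenitor-like, basal-like and mixed nuclei of both libraries had medians from 0.0269% to 0.0314%. DOX members of cluster 6 were at 0.106% and EtOH members of that cluster at 0.0902%, whereas DOX members of cluster 1 were at 0.0423% and EtOH members of cluster 9 at 0.0595%. Both cluster 1 and cluster 9 members thus lay between cluster 6 members and other epithelial nuclei. Between libraries, the element regions in members moved with all regions, with a shift of the median log2 DOX over EtOH ratio of -0.02 relative to all regions and 0.13 in cluster 6.

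Other motifs shifted less. FOX motifs (TGTTTAC, 9453 regions, 5.40% of all) were shifted by 0.30 in DOX and 0.57 in EtOH in members over other epithelial nuclei, and AP-1 motifs (TGANTCA, 36564 regions, 20.9%) by 0.31 and 0.70. GATA motifs (AGATAA, 23142 regions, 13.2%) were shifted by 0.07 and 0.26, SOX motifs (ACAAAGG) by -0.17 and -0.25, and progesterone-type response elements (GNACA and TGTNC with any 3 bases between) by 0.01 and 0.09. The remaining motifs searched on both strands were ETS (AGGAAG), TEAD (CATTCC), RUNX (TGTGGT), STAT (TTC and GAA with any 3 bases between), NFI (TGGCA and TGCCA with any 3 bases between) and CTCF (CCNCNA followed by GGNGGC). The central windows of 1 region can hold several motifs, so the sets overlap.

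FOX regions differed between DOX and EtOH members, but less within cluster 6. They took a median of 4.60% of counts per nucleus in DOX members (quartiles 3.91 to 5.44) and 5.80% in EtOH members (5.40 to 6.17), while progenitor-like, basal-like and mixed nuclei were between 3.75% and 4.08% in both libraries. In cluster 6 the medians were 5.73% in DOX and 6.04% in EtOH. In DOX members of cluster 1 the median was 4.19%, near that of other epithelial nuclei. Across regions, FOX motifs were shifted in DOX over EtOH by -0.30 in all members and by -0.09 in cluster 6, and AP-1 motifs by -0.21 and -0.05. The share of counts near transcription starts moved in the same comparison, with medians of 45.4% in DOX and 43.6% in EtOH members, and its part in the result was not tested.

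GATA motifs are the letters that GATA-family proteins, TRPS1 among them, are known to bind, and their regions gave another layout than FOX regions. In sorted luminal cells, however, the study found C2H2 zinc finger motifs enriched where TRPS1 was bound. It proposes that TRPS1 acts there more through these fingers than through its GATA domain. In EtOH, members had a median of 9.49% of counts in GATA regions (quartiles 8.90 to 10.0), whereas progenitor-like nuclei had 7.13%, basal-like 7.45% and mixed nuclei 7.47%. In DOX, members had 9.64% (9.10 to 10.2), progenitor-like nuclei 9.02%, basal-like 9.29% and mixed nuclei 9.18%. Members were thus at nearly the same level in both libraries, and the other epithelial classes were near it only in DOX. In cluster 6 the medians were 9.98% in DOX and 9.67% in EtOH, and EtOH members of cluster 9 were at 9.47%. Across regions, the shift of GATA motifs in DOX over EtOH was 0.02 in members and 0.06 in cluster 6, and 0.23 in progenitor-like, 0.23 in basal-like and 0.19 in mixed nuclei. The value in members was close to 0 and its sign changed with the processing. This layout was not particular to GATA motifs. RUNX motifs gave -0.02 in members, and 0.09 in progenitor-like, 0.06 in basal-like and 0.05 in mixed nuclei. NFI motifs, in 428 regions, gave 0.002 in members, and 0.15, 0.17 and 0.09 in those classes.

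**Figure D4:**
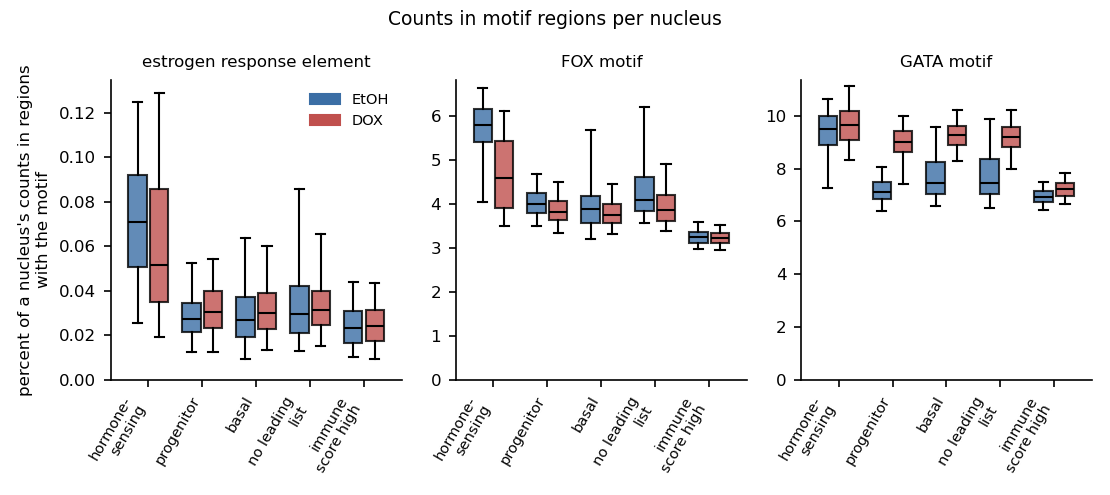
Percent of each nucleus's counts in regions with an estrogen response element (left), a FOX motif (middle) or a GATA motif (right) for members and the other classes, EtOH in blue and DOX in red. Boxes span the quartiles with the median as a line and whiskers span the 5th to 95th percentiles. Members exceed the other classes for the element in both libraries, while for GATA motifs the other epithelial classes are near the members only in DOX.

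Trps1, the targeted gene (chromosome 15, 50654752 to 50890463, minus strand), was about as open in DOX as in EtOH members. Its promoter, the regions within 1 kb of a start, held 516 counts in DOX and 1423 in EtOH members, 24.9 and 22.7 CPM, a log2 ratio of 0.13 (-0.08 to 0.34). In cluster 6 the ratio was -0.18 (-0.59 to 0.20). An shRNA acts on RNA, so accessibility of Trps1 does not check the depletion. Over its body, Trps1 was at 145 CPM in DOX and 138 CPM in EtOH members, against 177 and 156 CPM in other epithelial nuclei. Gata3, a GATA factor gene of luminal cells, had promoter levels of 84.0 and 80.2 CPM, a ratio of 0.07 (-0.04 to 0.18).

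Few promoters of the hormone pathway were 1.5-fold apart between DOX and EtOH members. Of 33 pathway genes, 32 had at least 100 promoter counts, of which 1 was at least 1.5-fold higher in DOX and 0 lower, while 4.47% of 15549 promoters were higher and 2.45% lower. Their median log2 ratio was 0.07, the same as the 0.07 over all promoters. In cluster 6, 0 of 31 were higher and 1 lower, beside 2.86% and 2.01% of 14516 promoters. The list holds all 6 genes of the rule and Elf5 of its progenitor list, whose counts chose the members of both libraries, so the values of these 7 in members are a description. Of the 25 other pathway genes with enough counts, 0 were higher and 0 lower, with a median of 0.07, and in cluster 6 it was 0 and 1 of 24. Fgf10, a growth factor gene, had no shared region.

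Among receptors, the Esr1 promoter held 808 counts in DOX and 2662 in EtOH members, 39.0 and 42.5 CPM, a log2 ratio of -0.13 (-0.29 to 0.03) and 0.05 in cluster 6. The Prlr promoter was at 33.6 and 41.0 CPM, a ratio of -0.29 (-0.46 to -0.12), and in cluster 6 the ratio was -0.52 (-0.82 to -0.23). The Pgr promoter was at 17.2 and 13.3 CPM, a ratio of 0.37 (0.11 to 0.63), and 0.36 in cluster 6. These 3 genes were used by the rule, and nothing is read from their ratios. Of the receptors outside the rule, Esr2, which encodes estrogen receptor beta, gave 0.43 (0.11 to 0.74) and 0.13 in cluster 6, Ghr, the growth hormone receptor gene, 0.24 (0.05 to 0.42) and 0.17, and Nr3c1, the glucocorticoid receptor gene, 0.13 (-0.01 to 0.26).

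Among factors that act with the receptors, Foxa1 was at 47.9 and 44.5 CPM, a log2 ratio of 0.10 (-0.05 to 0.25). Tfap2b, an AP-2 factor gene, gave -0.43 (-0.71 to -0.15) and -0.37 in cluster 6, while Tfap2c gave 0.17 and Tfap2a, at 84.8 and 85.0 CPM, hardly differed. The coregulator genes Ncoa3 and Nrip1 gave 0.26 and 0.24, Ncoa2 gave 0.04 and Ncoa1 gave -0.22. Cited1 gave 0.07, Greb1 -0.08, Tbx3 0.04 and Spdef -0.17, all with intervals across 0.

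Among secreted effectors, Tnfsf11, a gene of the rule, was the 1 promoter over 1.5-fold, on few counts, with 88 in DOX and 175 in EtOH members, 4.24 and 2.80 CPM, a log2 ratio of 0.60 (0.04 to 1.14) and 0.22 in cluster 6. Areg, the amphiregulin gene, was at 17.7 and 21.6 CPM, a ratio of -0.29 (-0.53 to -0.05), and -0.01 in cluster 6. Wnt4 gave 0.12 (-0.12 to 0.35), Stc2, a stanniocalcin gene, -0.12 (-0.27 to 0.04), Igf1 0.11 and Calca, the calcitonin gene, 0.01. Calca was the gene that passed 1.5-fold lower in cluster 6, at -0.60. This too was on few counts, since its body and 2 kb upstream held 158 counts in the EtOH members of that cluster. Among prolactin signaling genes, Cish, a feedback inhibitor, gave 0.23 (0.06 to 0.39) and 0.01 in cluster 6, while Jak2, Stat5a, Stat5b, Socs2 and Elf5 lay between -0.11 and 0.10.

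**Figure D5:**
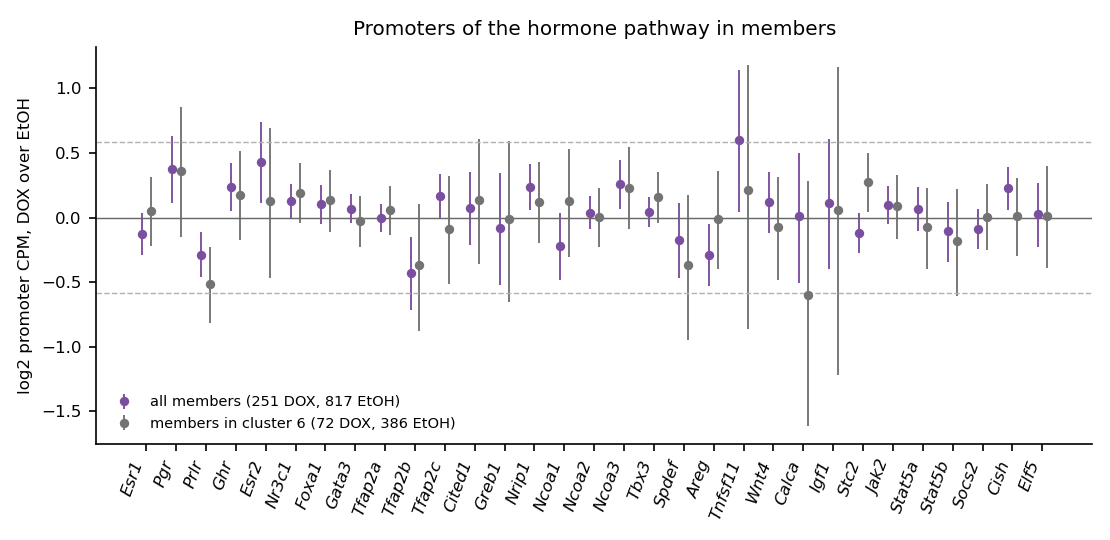
Log2 ratio of promoter CPM in DOX over EtOH for 31 hormone pathway genes, in all members (purple, 251 DOX and 817 EtOH) and in the members of cluster 6 (gray, 72 and 386), with 95% counting intervals as bars and dashed lines at 1.5-fold. Tnfsf11 in all members, at 0.60, and Calca in cluster 6, at -0.60, pass the lines, both on few counts.

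Some promoters of the progenitor lineage were higher in DOX members. Of 7 progenitor markers that the rule did not use, 3 were at least 1.5-fold higher and 0 lower, and in cluster 6 it was 1 and 0. Lcn2 was at 29.2 and 13.5 CPM, a log2 ratio of 1.11 (0.89 to 1.33) and 0.67 (-0.04 to 1.35) in cluster 6. Tspan8, a tetraspanin gene, gave 1.05 and 0.58, and Trf, the transferrin gene, 0.76 and 0.27, while Ehf, an ETS factor gene, gave -0.38 and -0.37. Of 192 progenitor genes listed by the study and outside the rule, 15 were at least 1.5-fold higher and 1 lower, beside 4.47% and 2.45% of all promoters, and of 287 mature genes 3 were higher and 7 lower. In cluster 6, 9 of 189 progenitor genes were higher and 1 lower and 5 of 287 mature genes were higher and 2 lower, beside 2.86% and 2.01% of all promoters. The rule itself used Wfdc18, a progenitor gene, at 1.49 (1.11 to 1.87), and the basal genes Krt14, at 1.39, and Trp63, at -0.96 (-1.81 to -0.19). Their counts decided membership, and DOX members lay closer to the cut, so these 3 values are a description.

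Targets of the co-activator YAP and of the serum response factor SRF were read from lists as well. Of 14 YAP target promoters, 3 were at least 1.5-fold higher in DOX members and 0 lower, Ankrd1 at 1.87 (1.22 to 2.54), Axl at 0.80 (0.20 to 1.38) and Ccn2 at 0.60 (0.40 to 0.81), with a median of 0.15, beside 4.47% higher and a median of 0.07 over all promoters. In cluster 6, 1 of 12 was higher, F3 at 0.69, with a median of 0.24. Of 17 SRF target promoters, 3 were higher and 0 lower, Egr3 at 0.83, Cald1 at 0.71 and Cnn1 at 0.62, and in cluster 6 it was 0 of 16, where 2.86% of all promoters were higher. Ccn2 was at 28.9 CPM in DOX and 19.0 CPM in EtOH members.

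The promoters with the highest DOX over EtOH ratio among 14836 with at least 200 counts were those of Cyp2d10, Dsc1, Lipk, Rasgrp3, Dpysl4, Cldn22, Sh3tc2, Mmp7, Tmem52b and Sorcs3, from 2.67 down to 2.05. Cyp2d10 held 163 counts in DOX and 77 in EtOH members and gave 3.70 in cluster 6. Ratios in cluster 6 are given here without counts or an interval, so their counting error is not shown. Dsc1, a desmocollin gene, gave 2.63 in members and 3.36 in progenitor-like nuclei. Cldn22 gave 2.30 in members and -0.14 in progenitor-like nuclei. The lowest were Tmc3, Adam18, Ccl9, Cldn14, Ctrc, Lgals4, Igip, Gm379, Dmbt1 and Clec1b, from -2.87 to -1.68. Tmc3 held 38 counts in DOX and 840 in EtOH members and gave -2.51 in cluster 6. Ccl9, a chemokine gene, gave -2.23 and -2.18, so both stood about as low within cluster 6.

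Over all 121233 regions with at least 100 counts in members, 9291 were at least 2-fold higher in DOX (7.66%) and 9292 lower (7.66%). Within cluster 6, 1324 of 78372 regions were higher (1.69%) and 3517 lower (4.49%). The distal regions highest in DOX members lay in Syn3, near Cyp4a29, in Pcsk5 and near Mylip. The Syn3 region held 203 counts in DOX and 22 in EtOH members, a log2 ratio of 4.80 (3.90 to 5.85), but only 10 and 6 of them in cluster 6, and it was more open in other DOX epithelial nuclei (17.9 CPM) than in DOX members (9.79 CPM). The Mylip region held 350 and 68 counts, a ratio of 3.96 (3.42 to 4.53), and 3.40 in cluster 6.

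The distal regions lowest in DOX members by rank, near Crtc3, Ubl3 and Lpar1 and in Klf7, held 1 or 2 DOX counts each, and there the peaks of both libraries shared 2.18% to 27.9% of the merged region. Counts in such a region come from different bases in each library, so these ratios are not used. Among regions whose peaks shared at least 80%, chosen after the values were seen, the lowest lay in an intron of Rabgap1l. It held 4 counts in DOX and 237 in EtOH members, 0.193 and 3.79 CPM, a log2 ratio of -4.30 (-7.36 to -2.41), with 2 and 127 of these counts in cluster 6.

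Within the EtOH library the members of clusters 6 and 9 were compared gene by gene. Esr1 was at 194 CPM in cluster 9 and 197 CPM in cluster 6, Prlr at 146 and 155 CPM, Pgr at 18.9 and 17.7 CPM and Ly6a at 18.6 and 17.6 CPM. Of the other rule genes, Tnfsf11 was lower in cluster 9, at 16.7 against 23.9 CPM, a log2 ratio of -0.52 (-0.76 to -0.27). Foxa1 gave -0.20 (-0.36 to -0.04) and Cited1 0.04 (-0.24 to 0.32). Genes of the rule chose both sets of nuclei, so nothing is read from their likeness. Greb1 was at 48.2 CPM in cluster 9 and 88.0 CPM in cluster 6, a log2 ratio of -0.87 (-1.01 to -0.73). Tfap2c was at 60.2 and 23.4 CPM, a ratio of 1.37 (1.18 to 1.55), Igf1 at 23.3 and 7.45 CPM, 1.65 (1.33 to 1.97), and Lcn2 at 16.6 and 4.73 CPM, 1.81 (1.42 to 2.22). Lcn2 does not stand for its list, since 3 of 7 progenitor markers outside the rule lay above 0, with a median of -0.03. Of 7 further basal markers 5 lay above 0, with Cnn1 at 1.39 and Krt5 at 1.14. Over all genes 10406 of 16800 lay above 0, with a median of 0.05. Rgs7 was nearly closed in cluster 9, at 2.52 against 29.6 CPM, a ratio of -3.55 (-4.09 to -3.06). Of 16800 genes, 3.25% were at least 1.5-fold higher in cluster 9 and 2.51% lower. Of 195 progenitor genes listed by the study and outside the rule, 9 were higher and 1 lower. The estrogen response element was shifted by -0.80 in cluster 9 over cluster 6, FOX by -0.10 and GATA by -0.04. The clusters were made from these same nuclei, so the differences are a description.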

How the data were processed

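Single-nucleus ATAC counts of 1 DOX and 1 EtOH library were analysed. The authors aligned reads to mm10 with Cell Ranger and deposited, per library, a matrix of transposition counts per peak and nucleus (raw counts, cellranger-atac 2.0.0 per the file headers); the libraries held 3071 and 3104 nuclei, medians of 75296 and 66789.5 counts, and 223161 and 229746 peaks. Peaks were merged into 275294 regions, of which 174940 had a peak of both libraries. Members were summed per library and scaled to counts per 1000000 shared-region counts. With 1 library per group no count model was run, and ratios carry exact conditional binomial 95% intervals on counts divided by 2. Gene calls needed 1.5-fold, region calls 2-fold, and both at least 100 counts. Clusters came from latent semantic indexing and Leiden clustering (scanpy 1.11.5). Genes came from GENCODE and sequence from the RefSeq GRCm38 assembly. Doublets were not removed. An alternative left out nuclei above the 95th percentile of counts.

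Named genes were all listed genes, the 10 genes most open in members, the 10 highest and 10 lowest promoters and 4 regions of each kind, beside exceptions stated as chosen later. The members and lists were chosen with earlier results of these data known. The calculation of the ratios was run on simulated counts drawn as the intervals assume, which does not check the intervals on these data. Alternatives varied the depth minimum, margin, immune cut, list, scaling, count minimum and motif window. Some listed or ranked items are not reported here.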

Additional observations from a re-analysis of the deposited data

Results flagged for a closer look

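Among 120 listed genes, 2 were lower in members than in other epithelial nuclei in DOX and higher in EtOH with intervals that did not cross 0, and the difference between the libraries was not tested. Gata5, a GATA factor gene, gave a log2 ratio of -0.60 in DOX (-1.23 to -0.02) and 0.41 in EtOH (0.08 to 0.72), from 2.65 against 4.01 CPM in DOX and 4.44 against 3.35 CPM in EtOH. Mylk, the myosin light chain kinase gene on the basal list of the rule, gave -0.23 in DOX (-0.31 to -0.14) and 0.072 in EtOH (0.02 to 0.12). Counts of Mylk helped to choose the members, so its values are a description.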

How the results depend on the processing

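No paired analysis was possible because a single library stood for each treatment. The member share in DOX, 9.19%, became 13.1% with a margin of 1.0, 4.87% with 1.5, 18.7% without the immune cut, 10.5% after thinning, 11.5% with each library's own mean and 12.4% without Esr1. In EtOH, 29.4% became 34.5%, 22.8%, 32.0%, 26.8%, 24.1% and 27.4%. The GATA shift of 0.021 between libraries turned to -0.0046 with each library's own mean and to -0.011 over whole regions, and was 0.0031 without the deepest nuclei, 0.0086 in thinned members, 0.060 in distal regions and 0.056 in cluster 6. The Trps1 promoter ratio was -0.18 in cluster 6, and the median of mature genes, 0.059 at promoters, was -0.028 over gene bodies. Promoters higher in DOX fell to 415 in cluster 6. Regions higher in DOX were 4619 with a margin of 1.5, 1324 in cluster 6, 15181 at a minimum of 50 counts and 4291 at 200, and regions lower in DOX 3517 in cluster 6. The cause of these changes was not tested. Without the genes of the rule, the pathway median was 0.067 and that of mature genes 0.059. The settings for cluster 6, thinned members, overlapping peaks and genes outside the rule were chosen after seeing the data. Where peaks of both libraries shared at least 80%, 8377 regions were higher and 6497 lower. Depth limits the values of the 72 DOX members of cluster 6, and more so those of the 4 in cluster 9, which are not compared.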
